A study of Mus musculus with 6 samples.

Results

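Gata4 and Gata6 transcripts passed the test for a rise at the first step of in vitro endoderm differentiation, and Gata3 transcripts at the second. Those of Gata5 and of the cofactor Zfpm2 were low or barely detectable throughout. Gata4 was also higher after the second step, without passing there, and a difference between the steps passed for Gata6 alone. Apart from the first-step rise of Gata6, these results did not pass in every fit that left out a single sample. These 5 genes, the GATA factors Gata3, Gata4, Gata5 and Gata6 and the friend-of-GATA (FOG) gene Zfpm2, were taken by gene name from the RSEM gene tables, which list 24054 genes. All 5 were found. Of them, 4 passed the filter on low counts, which kept 14539 genes in all, and Gata5 did not. Levels are given as CPM, the expected count of a gene scaled to the same library total in every sample.

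RNA-seq had been performed on 3 populations of a mouse embryonic stem cell (ESC) line, with 2 replicates each. All cells, the controls included, carried the same double knock-in, with Foxa2-Venus heterozygous and Sox17-Cherry homozygous, so no population was free of reporters. The d0 population was undifferentiated ESCs sorted as Foxa2-Venus negative and Sox17-Cherry negative. The d3F population was collected at day 3 as Venus positive and Cherry negative (mesendoderm by its label), and the d5FS population at day 5 as positive for both (endoderm by its label). Both had been kept in endoderm differentiation medium with 1 ng/ml Wnt3a and 10 ng/ml Activin A. Undifferentiated cells were maintained in ESC medium with fetal calf serum and LIF, per the methods. Time and sorting gate change together between the populations, and against d0 the medium and its growth factors change with them. The contributions of these cannot be told apart, and nothing in the sources used here says whether the line is a single clone. The libraries held 16457729 to 22768686 expected counts.

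GATA factors are zinc finger proteins that bind the sequence after which they are named. Gata4, Gata5 and Gata6 form the subfamily known from heart, gut and extraembryonic endoderm, and Gata4 and Gata6 act in the making of primitive and definitive endoderm. Gata1, Gata2 and Gata3 form the other subfamily, known from blood, trophoblast and T cells, and the FOG proteins Zfpm1 (FOG1) and Zfpm2 (FOG2) bind a GATA zinc finger and bring in corepressors such as NuRD and CtBP.

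The labels of the populations were checked against marker lists. Summed levels of 10 pluripotency markers were 1980 and 6520 CPM in d0, 1100 and 575 CPM in d3F and 358 and 259 CPM in d5FS. The 10 listed markers of definitive endoderm summed to 216 and 382 CPM in d0, 2030 and 1160 CPM in d3F and 1190 and 1500 CPM in d5FS. Trh, a hormone precursor, carried 82.2% and 74.5% of the d3F sums, and without it the other 9 markers summed to 138 and 82.8 CPM in d0, 361 and 296 CPM in d3F and 909 and 1290 CPM in d5FS. The 10 mesendoderm markers summed to 62.3 and 17.6 CPM in d0, 647 and 553 CPM in d3F and 377 and 435 CPM in d5FS. Markers of the labelled populations were therefore present, although mesendoderm markers stayed raised in d5FS and pluripotency transcripts had not disappeared from it. The definitive endoderm list holds Foxa2 and Sox17 and the mesendoderm list holds Foxa2, so part of these sums followed from the sorting gates. Foxa2 and Sox17, on which the cells were sorted, were higher in d5FS than in d0 by a log2 fold change of 8.11 and 6.94.

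Gata4, whose product is required for ventral morphogenesis and heart formation and opens chromatin together with Foxa factors, was the most abundant member in d5FS. Its gene lies on chromosome 14 (63198922 to 63271692, minus strand, mm10, GENCODE M21). It measured 1.49 and 2.52 CPM in d0, 17.9 and 75.8 CPM in d3F and 167 and 333 CPM in d5FS. The 3 populations did not overlap and their order was the same in both replicates, but the d3F samples differed from each other 4.23-fold. From 33 and 56 expected counts in d0 the gene reached 2750 and 5852 in d5FS.

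From d0 to d3F, Gata4 rose by a log2 fold change of 4.47 (SE 0.804, 95% interval 2.63 to 6.31, adjusted p = 0.0231 by the quasi-likelihood test of edgeR, Benjamini-Hochberg adjusted over all tested genes). To be called, a gene needed an adjusted p under 0.05 together with a log2 fold change beyond 1 in size. This call was lost without d0 replicate 2 (edgeR adjusted p = 0.0589) and without d3F replicate 2 (adjusted p = 0.0738, log2 fold change 2.94), and the adjusted p of its 14 alternatives ran from 9.19e-23 to 0.0738. From d3F to d5FS its log2 fold change was 2.36 (SE 0.711, 95% interval 0.73 to 3.99), which did not pass (edgeR adjusted p = 0.138). With the replicate number as a block it did pass (log2 fold change 2.62, edgeR adjusted p = 0.0132), as it did in 3 of the 14 alternatives in all, whose adjusted p ran from 1.01e-07 to 1. Between d0 and d5FS the log2 fold change was 6.83 (SE 0.887, edgeR adjusted p = 0.00304), the largest among the members, and it was called in all 14 alternative analyses.

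Gata6, which acts at the top of the primitive endoderm programme and also in definitive endoderm, lies on chromosome 18. It measured 0.407 and 0.494 CPM in d0, 18.1 and 23.3 CPM in d3F and 28.3 and 39.5 CPM in d5FS. No d0 sample came near a differentiated one, and the replicates of each population differed by 1.21-fold to 1.40-fold, less than those of Gata4. From d0 to d3F Gata6 rose by a log2 fold change of 5.41 (SE 0.469, 95% interval 4.34 to 6.49, edgeR adjusted p = 0.00269). From d3F to d5FS the log2 fold change was 0.69 (SE 0.364, 95% interval -0.14 to 1.52, edgeR adjusted p = 0.362), so the interval holds both no change and an increase. From d0 to d5FS it rose by 6.10 (SE 0.48, edgeR adjusted p = 0.00101). The rise at the first step and that from d0 to d5FS were called in all 13 alternatives that tested the gene.

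The steps themselves were compared by subtracting the d0 to d3F change from the d3F to d5FS change. For Gata6 this difference was -4.72 on the log2 scale (SE 0.648, 95% interval -6.20 to -3.24), with the larger change at the first step (edgeR adjusted p = 0.0416). Leaving out single samples ended this call in 4 of 6 fits, namely without d0 replicate 2, d3F replicate 2, d5FS replicate 1 or d5FS replicate 2. Its adjusted p in edgeR and the other alternatives ran from 1e-08 to 0.195. The difference for Gata4 was -2.11 (SE 1.17, 95% interval -4.78 to 0.55, edgeR adjusted p = 0.598), and it had the opposite sign without d3F replicate 2 (0.95). No difference in timing between Gata4 and Gata6 was tested.

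Gata3, known from T cells, trophoblast and surface ectoderm, followed another course. Its gene is on chromosome 2 (9857078 to 9890034, minus strand, mm10, GENCODE M21). It measured 1.63 and 0.629 CPM in d0, 0.527 and 0.774 CPM in d3F and 9.84 and 16.1 CPM in d5FS. The d0 and d3F samples overlapped, whereas both d5FS samples lay above all others. The lower samples rest on 12 to 36 expected counts and the d5FS samples on 162 and 283.

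From d0 to d3F the log2 fold change of Gata3 was -0.84 (SE 0.598, 95% interval -2.21 to 0.53, edgeR adjusted p = 0.495). From d3F to d5FS Gata3 rose by 4.29 (SE 0.62, 95% interval 2.87 to 5.71, edgeR adjusted p = 0.021). The value stayed between 3.82 and 4.69 when single samples were left out, but the call was lost in 4 of 6 such fits, without d3F replicate 1 (edgeR adjusted p = 0.179), d3F replicate 2 (0.0677), d5FS replicate 1 (0.0939) or d5FS replicate 2 (0.106). Over its 14 alternatives the adjusted p ran from 3.14e-10 to 0.179. From d0 to d5FS Gata3 rose by 3.45 (SE 0.588, edgeR adjusted p = 0.0068), which was called in all 14 alternatives. The difference between its steps was 5.13 (SE 1.11, edgeR adjusted p = 0.106), opposite in sign to that of Gata6 but not past the threshold.

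**Figure D1:**
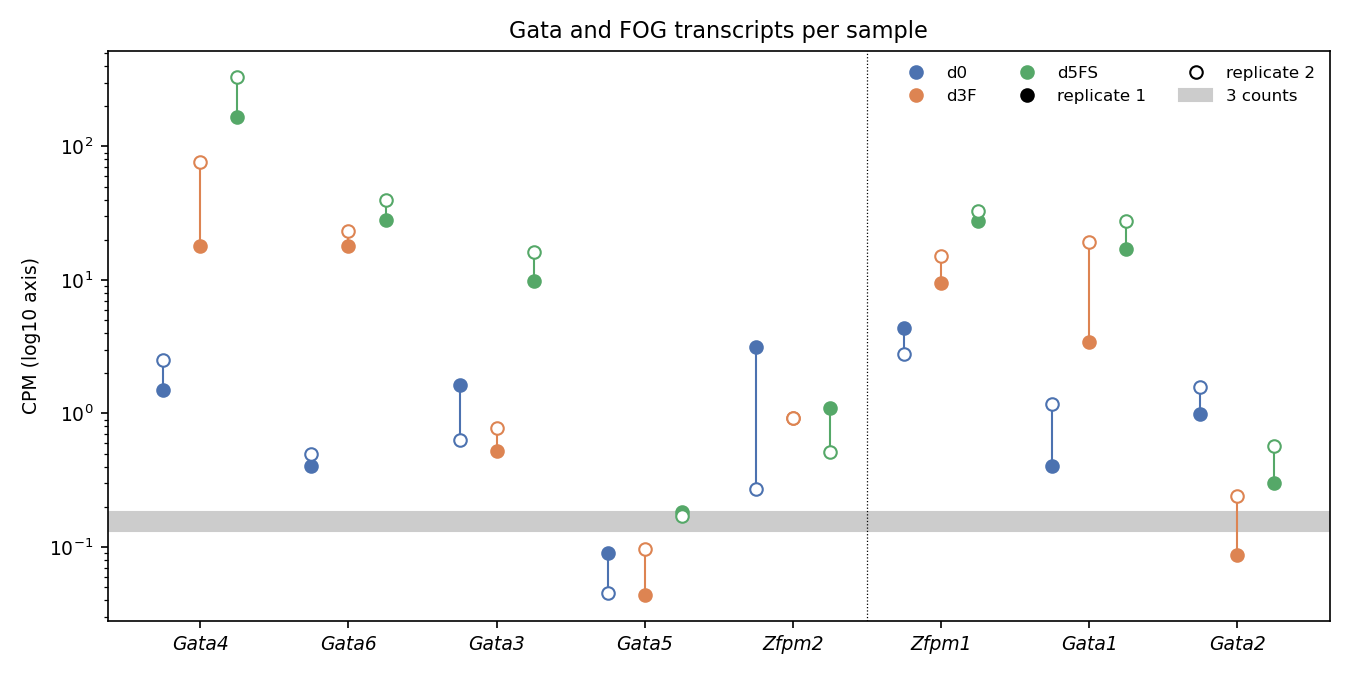
CPM on a log10 axis for the 5 members (left of the dotted line) and 3 related genes (right) in d0, d3F and d5FS. Filled and open circles are replicates 1 and 2, lines join the replicates of a population, and the grey band is the CPM of 3 counts across the libraries (0.132 to 0.182). Gata4 and Gata6 stand well above d0 in d3F, Gata3 does so in d5FS alone, Gata5 stays at or under the band, and the d3F circles of Zfpm2 coincide.

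Gata5, a heart and gut factor of the Gata4 subfamily, had 2 and 1 expected counts in d0, then 1 and 2 at d3F, then 3 and 3 at d5FS. No sample exceeded 3 counts, a level of 0.132 to 0.182 CPM depending on the library, so no fold change was computed and a difference was not detectable at this depth. Gata5 (chromosome 2, 180325133 to 180334699, minus strand) overlaps the antisense gene Gata5os over 1843 bases, and that gene had 0 to 2 counts. A strand-marking step is not described for these libraries, so reads from the overlap could not be assigned by strand.

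Gata3 and Gata5 thus gave a member that reached 9.84 CPM or more in d5FS and a member that remained at the detection limit, and the sequences before their start sites are shown to set these side by side. RefSeq promoter sequences were found for 2 of the 5 members, Gata3 and Gata5. The sequences run 5′ to 3′ on the strand of the gene, from 250 to 21 bases before the RefSeq start site (GRCm38.p6), with GC boxes (GGGCGG, either strand) in capitals.
Gata3, chr2:9878621-9878850, minus strand: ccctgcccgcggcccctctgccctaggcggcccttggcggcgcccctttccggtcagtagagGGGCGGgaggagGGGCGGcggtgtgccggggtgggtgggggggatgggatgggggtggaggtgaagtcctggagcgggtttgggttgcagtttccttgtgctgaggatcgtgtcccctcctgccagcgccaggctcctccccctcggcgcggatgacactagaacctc
Gata5, chr2:180334700-180334929, minus strand: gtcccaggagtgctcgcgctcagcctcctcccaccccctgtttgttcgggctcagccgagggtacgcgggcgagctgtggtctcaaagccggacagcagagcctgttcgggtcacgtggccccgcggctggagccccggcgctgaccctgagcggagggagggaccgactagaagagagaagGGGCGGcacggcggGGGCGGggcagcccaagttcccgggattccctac

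In base composition the 2 windows were alike. G and C made up 70.9% of the Gata3 window and 70.4% of the Gata5 window, which held 16 and 21 CpG dinucleotides against a median of 5 over 32851 RefSeq promoter windows of the same length. Each held 2 GC boxes, which 29.8% of all windows hold at least once. Neither held the GATA motif core GATAA (either strand, as for all motifs here), present in 21.5% of all windows, the forkhead motif TGTTTAC (2.91%), the Goosecoid motif TAATCC (5.88%) or a TATA box (TATAAA, 11.8%). These exact letters were absent from these windows only. Variant forms of the motifs and more distant sequence were not searched. The Gata3 window lies in an intron of longer GENCODE Gata3 transcripts and overlaps an exon of Gm13256 on the opposite strand.

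The gene 4930412O13Rik starts 2652 bases from that Gata3 start site, on the plus strand and inside the longer GENCODE span of Gata3. It had 2 and 2 expected counts in d0, then 2 and 3 at d3F, then 20 and 39 at d5FS. Both d5FS samples thus lay above all others, as they did for Gata3. From d0 to d5FS it rose by a log2 fold change of 4.07 (SE 0.8, edgeR adjusted p = 0.011). Without strand, its reads and those of overlapping Gata3 transcripts cannot be told apart. Of 7 listed antisense or neighbouring transcripts, 3 were in the tables under those names (1 of them, Gm10804, lies near no member), and only 4930412O13Rik was tested.

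Zfpm2, the FOG partner of Gata4 in heart and gonad, lies on chromosome 15 (40655035 to 41104592, plus strand, mm10, GENCODE M21). It measured 3.12 and 0.27 CPM in d0, 0.922 and 0.919 CPM in d3F and 1.09 and 0.513 CPM in d5FS. The d0 samples differed 11.6-fold and enclosed all the others. Its log2 fold change was -0.89 (SE 0.924, 95% interval -3.0 to 1.23, edgeR adjusted p = 0.668) from d0 to d3F, and -0.23 (SE 0.961, 95% interval -2.43 to 1.97, edgeR adjusted p = 0.926) from d3F to d5FS. From d0 to d5FS it was -1.12 (SE 0.946, 95% interval -3.29 to 1.04, edgeR adjusted p = 0.418). The sign of the d0 comparisons rests on d0 replicate 1, without which they were 1.53 and 1.29. Zfpm2 was called in none of the 13 alternatives that tested it. The intervals hold no change and allow a fall of several-fold. Their upper limits, 1.23, 1.97 and 1.04 on the log2 scale, allow a smaller rise.

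Zfpm1, the FOG gene known from blood cells, exceeded Zfpm2 in every sample by TPM. It measured 4.39 and 2.79 CPM in d0, 9.57 and 15.2 CPM in d3F and 27.6 and 32.9 CPM in d5FS, with no overlap between populations. The log2 fold change was 1.73 (SE 0.406, edgeR adjusted p = 0.0513) at the first step, where the replicate block gave an adjusted p of 0.035, and from d0 to d5FS Zfpm1 rose by 2.98 (SE 0.422, edgeR adjusted p = 0.0039). On the TPM scale, which divides by transcript length, Zfpm2 made up 32% and 6.06% of the summed FOG level in d0, then 6.03% and 3.83% at d3F, then 2.62% and 0.968% at d5FS.

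**Figure D2:**
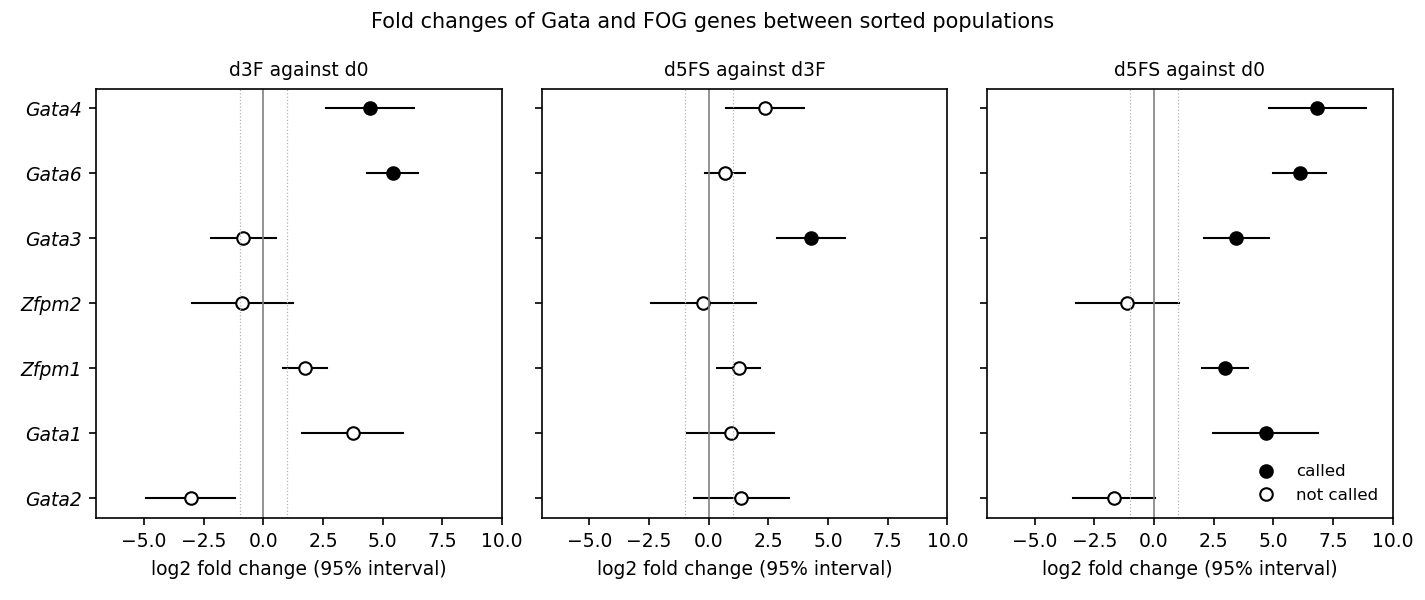
Log2 fold changes (circles) with 95% intervals (lines) from the edgeR fit for the 4 tested members and 3 related genes in each comparison. Filled circles were called, and the dotted lines mark log2 fold changes of -1 and 1. Gata4 and Gata6 were called at the first step, Gata3 at the second, and the intervals of Zfpm2 span 0 in all 3 panels.

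Counted over the tested members, 2 of 4 were called from d0 to d3F, both higher (Gata4 and Gata6), where 4.7% of all genes were called (2.8% higher, 1.9% lower). From d3F to d5FS 1 of 4 was called, Gata3 (2 with the replicate block, which added Gata4), against 1.54% of all genes (1.08% higher, 0.461% lower). From d0 to d5FS 3 of 4 were called higher (Gata3, Gata4 and Gata6), against 22.8% of all genes (12.4% higher, 10.4% lower). In the test between the steps 1 of 4 passed, Gata6, against 0.413% of all genes (0.0825% with a larger second step, 0.33% with the sign of Gata6). The median log2 fold change of the 4 tested members was 1.82, 1.53 and 4.78 in these comparisons, while that of all 14539 genes was -0.00586, 0.011 and 0.0175. The member that did not pass the filter is not part of these counts, and in bulk samples fewer cells with a transcript and less transcript per cell cannot be told apart.

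Within the GATA family, levels were compared between genes by TPM, which is meaningful within a sample. The 6 genes Gata1 to Gata6 summed to 1.11 and 0.84 TPM in d0, 8.63 and 18.1 TPM in d3F and 32.3 and 41.5 TPM in d5FS. Small RNAs weigh on this scale, since Rmrp took 18.1% to 23.1% of all TPM in 5 libraries and Snord22 took 33% in d5FS replicate 2. The shares within the family do not depend on that.

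Gata4 took 27% and 33.3% of the family TPM in d0, then 40.4% and 55.1% at d3F, then 69.5% and 74.9% at d5FS, the highest share in every sample but d0 replicate 1 and d3F replicate 1. Gata6 took 8.11% and 7.14% in d0, then 43.5% and 18.1% at d3F, then 12.6% and 9.47% at d5FS. Its share was thus highest in d3F, where the replicates were also furthest apart. Gata4 exceeded Gata6 by 3.33-fold and 4.67-fold in d0 and by 5.54-fold and 7.91-fold in d5FS, whereas in d3F the ratio was 0.931 in replicate 1 and 3.05 in replicate 2. The order of the 2 genes in d3F therefore did not hold beyond the spread of the replicates.

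Gata3 took 30.6% and 8.33% of the family TPM in d0, then 1.27% and 0.607% at d3F, then 4.34% and 3.83% at d5FS. In d5FS the order by TPM was Gata4, then Gata1 and Gata6, then Gata3, then Gata2 and Gata5. Gata1 (4.31 and 4.8 TPM) and Gata6 (4.05 and 3.93 TPM) were close, and the same order was seen in both d5FS samples. Among all tested genes, Gata4 lay above 90% and 94.4% in d5FS and Gata6 above 57.8% and 66.6%, by TPM.

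Gata1, the erythroid factor of the other subfamily, measured 0.407 and 1.17 CPM in d0, 3.43 and 19.1 CPM in d3F and 17.1 and 27.5 CPM in d5FS. Its d3F replicates differed 5.56-fold, and d3F replicate 2 was above d5FS replicate 1. It rose by a log2 fold change of 4.67 from d0 to d5FS (SE 0.952, edgeR adjusted p = 0.0125), a call lost without d5FS replicate 2. Gata2, the haematopoietic stem cell factor, measured 0.995 and 1.57 CPM in d0, 0.0878 and 0.242 CPM in d3F and 0.304 and 0.57 CPM in d5FS and was not called in any comparison. Of 7 other GATA-type genes (these 2, Trps1, Zglp1 and the Gatad genes), Gata1 was the 1 gene called from d0 to d5FS, where 22.8% of all genes were called. None was called at either step by edgeR, with 3 and 0 genes at an unadjusted p under 0.05. Of all genes, 4.7% and 1.54% were called at these steps.

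**Figure D3:**
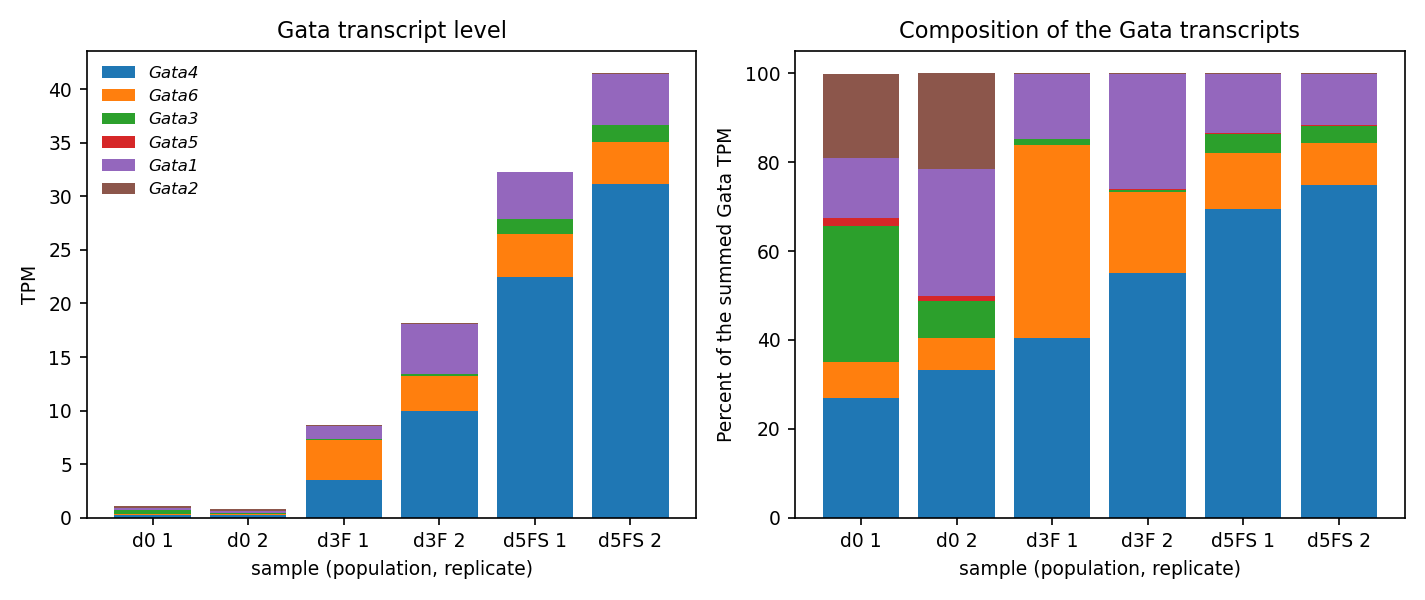
Stacked TPM of Gata1 to Gata6 in each sample (left) and the same as percent of their sum (right). The sum is 1.11 TPM or less in d0 and 32.3 and 41.5 TPM in d5FS, Gata4 is the main part in d5FS, and Gata6 has its largest part in d3F replicate 1 (43.5%).

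Genes of other lineages in which these factors act were examined beside the members. The trophoblast list, which belongs beside Gata3, summed to 692 and 365 CPM in d0, 1320 and 2240 CPM in d3F and 7740 and 7550 CPM in d5FS, with Krt8 giving 52.6% of it in d5FS. Of its 12 genes, 5 were under 1 CPM in d5FS, the transcription factors Cdx2, Elf5 and Tfap2a among them, and Tpbpa was at 0. Genes of the list went either way, and those named next were picked after their values were seen. From d0 to d5FS Cdx2 and Tfap2c were called lower, by log2 fold changes of -2.96 (SE 0.684, edgeR adjusted p = 0.019) and -2.90 (SE 0.392, edgeR adjusted p = 0.00336). Tfap2c measured 34.1 and 48.8 CPM in d0 and 7.47 and 4.84 CPM in d5FS. The keratins Krt7 and Krt18 rose from d0 to d5FS by log2 fold changes of 3.13 (SE 0.375, edgeR adjusted p = 0.00263) and 4.34 (SE 0.462, edgeR adjusted p = 0.00187). Ascl2, a trophoblast factor and Wnt target, measured 7.33 and 2.52 CPM in d0, 0.615 and 1.06 CPM in d3F and 9.54 and 6.55 CPM in d5FS. It was called at the second step (3.21, SE 0.624, edgeR adjusted p = 0.0498) but not from d0 to d5FS (0.63, SE 0.558, edgeR adjusted p = 0.439). The list of surface ectoderm and neural markers, also beside Gata3, summed to 4.13 to 6.97 CPM in all 6 samples.

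The cardiac and lateral mesoderm list, which belongs beside Gata4, Gata6 and Zfpm2, summed to 24.4 and 9.7 CPM in d0, 21.9 and 50.5 CPM in d3F and 555 and 223 CPM in d5FS. Myl7, an atrial myosin light chain, gave 68% of it in d5FS, while 3 of 12 genes, Mesp1, Nkx2-5 and Tbx5, were under 1 CPM there. Of its other genes, picked after their values were seen, Myl4 measured 92.7 and 55.9 CPM in d5FS and was called from d0 to d5FS (5.88, SE 1.08, edgeR adjusted p = 0.00873). Tnnt2 was called as well (4.33, SE 0.969, edgeR adjusted p = 0.0171) at 2.01 and 1.2 CPM in d5FS, and Tbx20 stood at 48.5 and 20.3 CPM there without being called. Within d5FS this list was higher in replicate 1 and Gata4 in replicate 2. The primitive and visceral endoderm list, whose cells also use Gata4 and Gata6, summed to 394 and 117 CPM in d0, 199 and 164 CPM in d3F and 473 and 273 CPM in d5FS, and none of its 12 genes was at 0 in d5FS. Lrp2, an endocytic receptor, carried 36.6% to 87.8% of the sum in d0 and 17.8% to 61.7% in d5FS. Without it the other 11 genes summed to 48 and 74.4 CPM in d0, 45 and 52.4 CPM in d3F and 181 and 224 CPM in d5FS, both d5FS samples lying above all others.

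The blood and endothelium list, beside Gata1, summed to 38.4 and 32.4 CPM in d0, 24.6 and 40.9 CPM in d3F and 76.7 and 69.6 CPM in d5FS. The list holds Gata1 and Gata2 themselves, so its sums are not separate from the Gata1 values, which were 17.1 and 27.5 CPM in d5FS. The globins Hbb-bh1 and Hba-x were at 0 in all 3 populations. Runx1, a haematopoietic factor that gave 61% of the sum in d5FS, measured 2.35 and 1.39 CPM in d0, 13.1 and 16.5 CPM in d3F and 53.6 and 35.7 CPM in d5FS. It was called at the first step (2.91, SE 0.394, edgeR adjusted p = 0.0105) and from d0 to d5FS (4.46, SE 0.416, edgeR adjusted p = 0.00144). Pecam1 and Tek of the same list were called lower from d0 to d5FS, by -2.85 (SE 0.538, edgeR adjusted p = 0.00966) and -3.14 (SE 0.889, edgeR adjusted p = 0.0374). Fibroblast genes were examined because ESC stocks had been thawed on feeders, which were removed before passages on gelatine and the later sort. They summed to 10.9 and 15.3 CPM in d0, 39.2 and 80.9 CPM in d3F and 252 and 196 CPM in d5FS. The collagen gene Col1a2 gave 60.9% of the d5FS sum, while the fibroblast genes Dcn and Lum were under 1 CPM. What other cells contributed to the Gata values was not tested.

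RNA without a poly(A) tail differed between the replicates as well. The 18 such RNAs found in the tables (histone genes, Rmrp, Rpph1 and Terc) summed to 49000 and 118000 CPM in d0, 50300 and 86200 CPM in d3F and 67800 and 80000 CPM in d5FS. Rmrp and Rpph1 carried 81.6% to 95.1% of these sums, and the other 16 RNAs summed to 9030 and 14900 CPM in d0, 9090 and 10500 CPM in d3F and 3290 and 7010 CPM in d5FS. Both sums were higher in replicate 2 of each population, as were Gata4, Gata6 and Gata1 by CPM. By TPM, Gata6 was lower in replicate 2 of each population (0.09 and 0.06 in d0, 3.75 and 3.28 in d3F, 4.05 and 3.93 in d5FS). So was Gata4 in d0 (0.3 and 0.28 TPM), but not in d3F or d5FS. Single RNAs could go the other way, such as Hist1h3d with 432 and 303 CPM in d3F. The labels and methods give ribosomal depletion of total RNA for all 6 libraries, whereas the library names of the study include mRNA for some, without a replicate number, which the sources used here do not reconcile. The part of this in the Gata values was not tested.

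Genes placed downstream of GATA4 and GATA6 were counted from a list of 30 endoderm genes, of which 29 were tested. The list was chosen with earlier results of these data known, so its counts are a description. Regulation of these genes by GATA4 or GATA6 was not tested. From d0 to d3F 10 were called higher and none lower, with a median log2 fold change of 1.21. From d3F to d5FS 9 were called higher and none lower (median 2.05), and from d0 to d5FS 24 were called higher and none lower (median 3.74). The shares of all genes called and the medians over all genes are those given above for the members. The list holds Foxa2 and Sox17, for which the cells had been sorted, and Alb was the 1 gene not tested. Single libraries decided how many were called at the steps, with 5 at the first step without d0 replicate 2 and 4 without d3F replicate 2. At the second step 0 were called without d3F replicate 1 (13 at an unadjusted p under 0.05 in edgeR, and 14 by the DESeq2 Wald test on all samples), 3 without d5FS replicate 1 and 1 without d5FS replicate 2, whereas from d0 to d5FS 19 or more were called in each such fit.

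The 4 listed genes with the largest called change from d0 to d5FS were Cer1, Hnf4a, Foxa2 and Ttr. Cer1, a secreted antagonist of Nodal, BMP and Wnt, measured 1.45 and 0.539 CPM in d0, 56 and 60.9 CPM in d3F and 316 and 479 CPM in d5FS, a log2 fold change of 8.56. Hnf4a, a nuclear receptor of liver and visceral endoderm, measured 0.0905 and 0.18 CPM in d0, 0.264 and 2.08 CPM in d3F and 41.7 and 60.4 CPM in d5FS. Like Gata3, it stood apart in d5FS, with a called rise of 5.40 at the second step (SE 0.837, edgeR adjusted p = 0.0263). Ttr, the thyroid hormone carrier, measured 0 and 0.135 CPM in d0, 0 and 0.629 CPM in d3F and 11.5 and 20.1 CPM in d5FS, and it was called from d0 to d5FS.

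Signals and factors placed upstream of the endodermal Gata genes were counted from a list of 18 genes, all tested. Whether they act on the Gata genes in these cells was not tested. From d0 to d3F 7 were called higher and 1 lower, from d3F to d5FS none higher and 3 lower, and from d0 to d5FS 9 higher and 2 lower, where 4.7%, 1.54% and 22.8% of all genes were called. The largest called changes from d0 to d5FS were those of Lhx1, Gsc, Bmp2 and Fgf8. Bmp2 is also counted in the list of genes downstream of GATA4 and GATA6. Lhx1, a homeodomain factor of the organizer, measured 0.271 and 0.27 CPM in d0, 33.6 and 41.7 CPM in d3F and 70.8 and 63.2 CPM in d5FS. Gsc, its partner in the organizer, measured 0.452 and 0.629 CPM in d0, 44.1 and 56.3 CPM in d3F and 49.1 and 77.2 CPM in d5FS. Both rose at the first step, by 7.00 (SE 0.428, edgeR adjusted p = 0.00178) and 6.43 (SE 0.503, edgeR adjusted p = 0.0024).

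The 3 genes of that list that fell at the second step, named after their values were seen, were the mesendoderm factors Mixl1 and T and the Nodal coreceptor Tdgf1. T measured 20.4 and 4.49 CPM in d0, 183 and 66.1 CPM in d3F and 9.11 and 3.25 CPM in d5FS. It was thus highest in d3F, in which Gata4 and Gata6 were already raised. The median log2 fold change of the list was 1.08 at the first step and -0.107 at the second. None of the 3 passed at the second step in edgeR without d3F replicate 1, d5FS replicate 1 or d5FS replicate 2, where 4, 6 and 7 genes of the list had an unadjusted p under 0.05.

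Among partner factors and coactivators of GATA4 and GATA6, the share called from d0 to d5FS was near that of all genes. Of 17 tested, 1 was called higher (Smad1) and 1 lower (Nr5a2) from d0 to d3F, against 4.7% of all genes. None was called at the second step (edgeR, 3 at an unadjusted p under 0.05 and 0 by the DESeq2 Wald test), against 1.54% of all genes. From d0 to d5FS 2 were called higher (Smad1 and Mef2a) and 2 lower (Nr5a2 and Jarid2), against 22.8% of all genes. Smad1, which carries BMP signals, measured 19.5 and 16.3 CPM in d0 and 85.7 and 96.1 CPM in d5FS. Nr5a2, a nuclear receptor of pluripotent and endodermal cells, measured 9.91 and 23.5 CPM in d0 and 1.34 and 0.57 CPM in d5FS, a log2 fold change of -4.31 (SE 0.662, edgeR adjusted p = 0.00481). The calls at the first step fell to 1 when any sample other than d3F replicate 2 was left out and to 0 without d3F replicate 2. The cardiac partner Nkx2-5 was not tested, with 9 expected counts at most.

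The corepressors that FOG proteins bring in were present throughout. The 15 listed NuRD and CtBP genes, all tested, summed to 2810 and 2530 CPM in d0, 2600 and 2340 CPM in d3F and 1850 and 2070 CPM in d5FS. None was called at either step by edgeR (5 and 2 at an unadjusted p under 0.05, 1 and 1 by the DESeq2 Wald test), against 4.7% and 1.54% of all genes. From d0 to d5FS 2 fell, Ctbp2 by 2.08 on the log2 scale (SE 0.305, edgeR adjusted p = 0.00434) and the deacetylase Hdac1 by 1.47 (SE 0.331, edgeR adjusted p = 0.0176), where 10.4% of all genes were called lower. Without d0 replicate 1, d5FS replicate 1 or d5FS replicate 2, 1 of them was called. The median of the list from d0 to d5FS was -0.505.

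**Figure D4:**
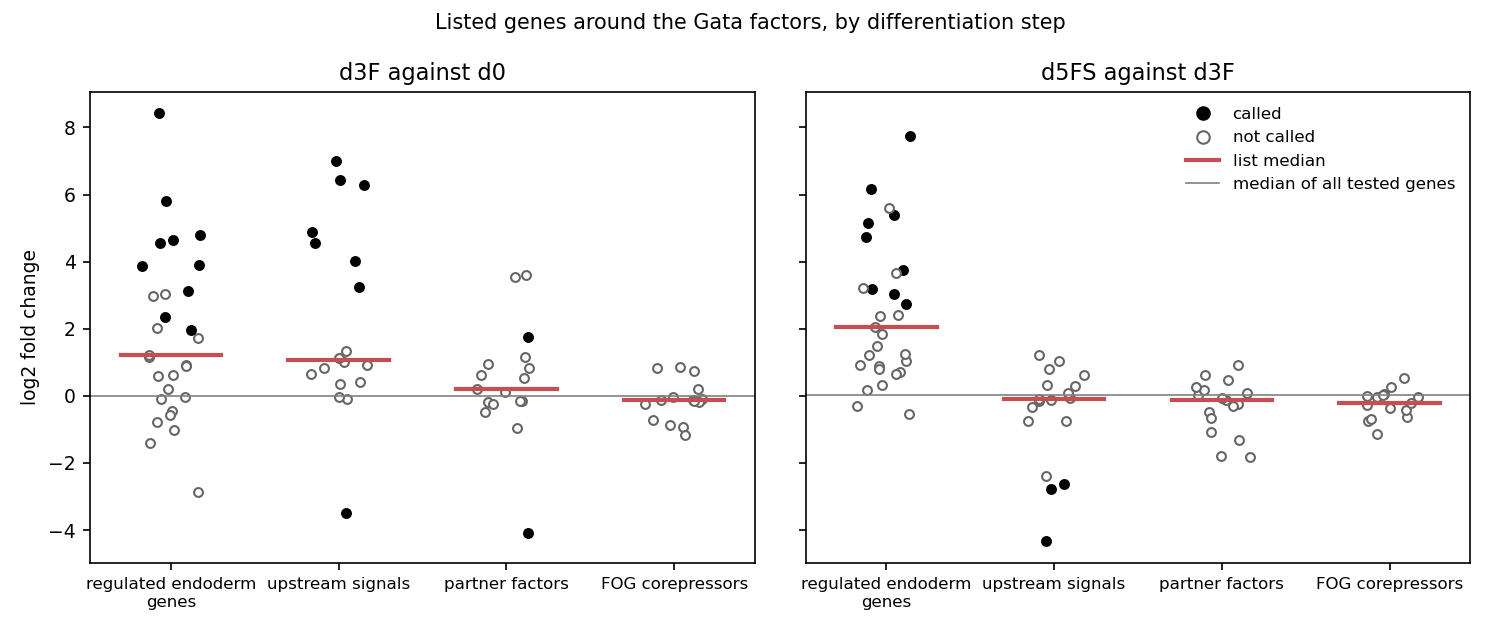
Log2 fold changes of the tested genes of 4 lists at the first (left) and second (right) step, 1 circle per gene, filled where called. Red bars are list medians and the grey line is the median of all tested genes. The median of the regulated endoderm genes is 1.21 at the first step and 2.05 at the second, while that of the upstream signals is 1.08 and then -0.107. Bmp2 is counted in both of these lists.

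Profiles most like those of the members were found by Pearson correlation of log2 CPM across the 6 samples. With 3 populations of 2 samples such values are high for many genes, and they are given as a description. For Gata4 these were Fgfrl1, Slc2a10, Tmem101, Mlycd and Pax7 (r of 0.9966 to 0.9985), and 459 genes exceeded 0.95. Pax7, at 1.42 CPM or less, fell to rank 83 with a smaller prior count of 0.5. For Gata6 they were Gsc, Ehf, Lrig3, Taok3 and Lhx1 (r of 0.9969 to 0.9975), so 2 of the 5 also stand in the list of upstream factors, and 326 genes exceeded 0.95. Ovol2, an epithelial zinc finger factor, was closest to Gata3 (r = 0.9991), followed by Nell1, Wipf2, Cish and Rusc1. Zfpm2 was most like Cdkl1, Memo1, Spon1, Gm10409 and Rrad (r of 0.9642 to 0.9758), and 12 genes exceeded 0.95 for it.

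Among the members themselves, Gata4 and Gata6 correlated with r = 0.94 across the 6 samples and Gata3 and Gata4 with r = 0.67. Zfpm1 and Gata1 each correlated with Gata4 at r = 0.98. Ovol2 ranged from 7.28 to 35.9 CPM, with its 2 highest values in d5FS like Gata3.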

How the data were processed

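Per the labels, total RNA of FACS-sorted cells had been depleted of ribosomal RNA and made into TruSeq libraries, although some library names of the study say mRNA. The authors aligned reads to mm10 (GRCm38) with STAR and counted them with RSEM, versions not given in the sources used here. The deposited expected counts are unnormalized RSEM estimates. TPM values, also deposited, are scaled for effective length and library, and the deposited FPKM values and transcript lengths were not used, except effective length for levels per kilobase.

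Samples were grouped by the population in their label. Expected counts were rounded, filtered with filterByExpr (14539 genes), scaled by TMM (factors 0.877 to 1.08) and fitted over all 6 samples in edgeR 4.0.16 (R 4.3.3), with a mean per population, 3 residual degrees of freedom and a prior count of 0.125. SE was obtained from the size of the log2 fold change and the F statistic, as their ratio after taking the root of F. With 2 samples against 2 the smallest exact permutation p is 0.33, so no such test was run. Every sample counted as a replicate, since the methods call them biologically independent. Sums without Trh, Lrp2, or Rmrp and Rpph1 were added after seeing the data. The members and gene lists were chosen with earlier results of these data known. Named were all members, Gata1, Gata2, Zfpm1, at most 4 called genes per list by change from d0 to d5FS, and 5 most similar profiles per member (prior count 2). Alternatives were DESeq2 1.42.0 tests and size factors, other filters, the replicate block, fits of 4 samples and fits without each sample. The scripts were tested on simulated data.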

Additional observations from a re-analysis of the deposited data

How the results depend on the processing

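Over 204 alternative values of member changes, 183 kept their direction and their side of the threshold. For Zfpm2 the sign turned without d0 replicate 1, without d5FS replicate 2 (second step) and with the replicate block (-0.02 between steps). Without d3F replicate 2 the difference between steps turned for Gata4, Zfpm1 and Gata1. The replicate numbers are shared by all populations, but no label ties them to a batch, and same-numbered samples deviated together with r of 0.314, 0.324 and 0.278 across genes. With the replicate block 1320, 918 and, between steps, 172 genes were called at the first step, the second and their difference, and 2 members at the second step, Gata4 being added (edgeR adjusted p = 0.0132, range over its alternatives 1.01e-07 to 1). With no filter 1933, 1423 and 908 genes were called, and 2 and 3 members at the second step and between steps. With at least 10 counts in every sample, which drops Gata6 and Zfpm2, 357, 144 and 12 genes were called, and 1 member at the first step and 0 between steps. Fits of only 4 samples called 430 and 529 genes at the steps. The DESeq2 Wald test called 1516 and 1104 genes and 2 members at the second step, and DESeq2 against a log2 fold change of 1 called 384 genes from d0 to d3F and 1035 from d0 to d5FS. Leaving out single samples gave 95 to 969 called genes and 1 to 2 members from d0 to d3F, 0 to 541 genes and 0 to 1 members from d3F to d5FS, 1063 to 3082 genes and 3 members from d0 to d5FS, and 0 to 229 genes and 0 to 1 members between steps. The counts of 0 arose in edgeR without d3F replicate 1 (second step, 1229 genes at an unadjusted p under 0.05) and without d5FS replicate 1 (between steps, 1378 genes); where a population is left with 1 sample, that sample is assumed to vary like the others. Among changes whose sign turned, leaving out single samples gave -1.73 to 1.53, -0.8 to 0.17, -1.95 to 1.29 and -1.76 to 1.51 for Zfpm2 at the first step, the second, from d0 to d5FS and between steps, and, between steps, -3.56 to 0.95 for Gata4, -1.21 to 0.48 for Zfpm1 and -4.4 to 0.9 for Gata1. The cause of these shifts was not tested.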
